A study of Homo sapiens with 8 samples.

Results

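Among the 4 cell lines of the MCF10A progression series, 11 protein-coding genes were expressed in M1, M2 and M4 cells and were undetected or much lower in M3 cells. They were chosen by their CPM, the count of a gene divided by the total count of its library and multiplied by 1000000. A gene was a member if its highest CPM in the 2 M3 libraries was at most 0.25 times its lowest CPM in the other 6 libraries, and if that lowest CPM was at least 1. Of the 56632 genes in the table, 10869 were protein coding with at least 1 CPM in all 6 libraries of M1, M2 and M4 (called eligible below), and the members were 0.101% of these. The members were ENSG00000214265 (a gene with no symbol in the annotation used), SNRPN, MGMT, KLK7, ABCC2, ZNF440, TMPRSS13, SLC7A8, VGLL3, GPNMB and ABCG2. Since the M3 values chose these genes, their low level in M3 is given as a description and is not tested.

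Poly A+ RNA was sequenced from 4 isogenic human mammary epithelial cell lines, with 2 biological replicates of each. M1 is MCF10A, an immortalized and non-tumorigenic line. M2 (MCF10AT1k.cl2) was made from MCF10A by transfection of activated T24-HRAS followed by selection as a xenograft, so M2, M3 and M4 all descend from HRAS-transfected cells. M3 (MCF10Ca1h) and M4 (MCF10CA1a.cl1) came from carcinomas that arose in M2 xenografts, and each is 1 line, so a difference between them and the other lines may belong to that line alone. All lines were grown for 8 days as acini in Matrigel with 2% horse serum, hydrocortisone, cholera toxin and insulin. The medium of M1 and M2 held EGF (10 ng/ml), and that of M3 and M4 held none. Cell line and medium therefore cannot be told apart between M3 and M1 or M2, whereas M4 shared the medium of M3.

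The total count per library ran from 69669970 to 107350344, so that 3 counts in an M3 library corresponded to 0.0342 or 0.0347 CPM. Over the 11680 genes with at least 1 CPM in every library, each library correlated best with the other replicate of its own label, with a Spearman's rho of 0.998 in M2, 0.983 in M4, 0.970 in M3 and 0.965 in M1, and of 0.948 to 0.952 between M1 and M2 libraries. These are correlations over genes, and genes do not stand in for replicates. The column names of an expression table that accompanies the study give the libraries labelled M1 replicate 2 and M2 replicate 1 to the other line. The choice of members does not depend on which of these 2 libraries is M1, but every comparison of M2 with M1 or M4 does. Counts of genes, members and genes of the lists with a member, called by edgeR with its main settings, are given below both ways. That is with the labels and with these 2 libraries exchanged. Other values of these comparisons are given with the labels only, unless the exchange is named. All 7 basal mammary markers checked (such as KRT5, KRT14 and TP63) were at 1 CPM or more in every library, while the leukocyte markers were mixed. PTPRC and CD3E were below 1 CPM in every library, and CD68 and CD14 were above it in every library, with 6.25 to 22.6 and 2.42 to 5.07 CPM in M3, within their ranges over all libraries (3.95 to 54.3 and 1.09 to 25.2 CPM). In bulk RNA, fewer cells with a transcript and less of it per cell cannot be told apart.

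The members include genes whose control has been studied closely elsewhere. SNRPN lies in the imprinted region of 15q, where transcripts are made from the chromosome inherited from the father while the maternal copy is silent and carries DNA methylation at the promoter. MGMT encodes the enzyme that removes alkyl groups from the O6 position of guanine, and its CpG-rich promoter is often methylated in tumours. ABCC2 and ABCG2 are export pumps for conjugates and drugs, and ABCG2 secretes riboflavin into milk in the mammary gland. Neither DNA methylation nor gene copy number was measured in these libraries.

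Promoters of 9 of the 11 members were matched in RefSeq (GRCh38.p14), each as 250 bases before to 50 bases after a transcript start. The promoters of 4 members are shown because the group ranged from very rich to nearly free of CG dinucleotides, which are printed in capitals, 5′ to 3′ on the strand of the gene. For a gene with several starts, the window with most CG is given. The SNRPN window is also that of SNURF.
MGMT (chr10:129466991-129467290, + strand, 45 CG): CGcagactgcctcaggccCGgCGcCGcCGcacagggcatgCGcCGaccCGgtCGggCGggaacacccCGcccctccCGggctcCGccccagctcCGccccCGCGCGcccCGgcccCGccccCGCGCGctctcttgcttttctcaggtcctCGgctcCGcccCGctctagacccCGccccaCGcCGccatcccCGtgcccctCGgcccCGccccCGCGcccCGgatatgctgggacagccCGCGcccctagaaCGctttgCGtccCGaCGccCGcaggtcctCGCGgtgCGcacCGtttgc
ABCG2 (chr4:88158590-88158889, - strand, 35 CG): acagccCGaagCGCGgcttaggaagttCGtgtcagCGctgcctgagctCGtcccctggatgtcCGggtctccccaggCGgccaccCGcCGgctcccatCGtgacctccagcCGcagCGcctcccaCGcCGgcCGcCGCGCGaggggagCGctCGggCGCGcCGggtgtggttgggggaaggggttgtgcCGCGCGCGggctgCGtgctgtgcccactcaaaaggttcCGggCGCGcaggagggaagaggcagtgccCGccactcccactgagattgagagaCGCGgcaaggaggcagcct
SNRPN (chr15:24954737-24955036, + strand, 18 CG): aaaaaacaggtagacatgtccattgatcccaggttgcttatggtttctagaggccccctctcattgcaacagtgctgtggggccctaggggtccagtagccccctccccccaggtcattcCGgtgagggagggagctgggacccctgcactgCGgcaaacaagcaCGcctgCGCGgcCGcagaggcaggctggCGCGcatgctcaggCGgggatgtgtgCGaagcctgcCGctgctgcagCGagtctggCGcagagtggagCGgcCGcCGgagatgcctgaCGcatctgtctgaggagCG
ABCC2 (chr10:99782390-99782689, + strand, 1 CG): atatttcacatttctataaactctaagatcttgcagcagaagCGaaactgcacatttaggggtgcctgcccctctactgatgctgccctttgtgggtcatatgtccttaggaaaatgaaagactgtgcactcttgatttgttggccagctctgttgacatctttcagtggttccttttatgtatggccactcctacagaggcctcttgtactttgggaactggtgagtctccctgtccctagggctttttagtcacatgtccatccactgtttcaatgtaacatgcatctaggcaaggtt

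The remaining 5 windows held 22 CG in VGLL3, 18 in ZNF440, 16 in KLK7, 16 in SLC7A8 and 3 in GPNMB. With a window called CpG-rich when its G+C content was above 50% and its ratio of observed to expected CG was above 0.6, 4 of 9 members (44.4%) were CpG-rich, namely MGMT, ABCG2, VGLL3 and ZNF440. The share was 89.4% of the 8950 eligible genes with a matched promoter, and 86.8% of the 5180 whose lowest CPM in the other lines lay in the range of the members (1.01 to 30.1). SNRPN, SLC7A8 and KLK7 were just under the limit, with ratios of 0.58, 0.55 and 0.54. ZNF440 and VGLL3 were just over it, with 0.605 and 0.645, so the count rests on where the limit is set. It also rests on the window, since another SLC7A8 window with fewer CG (chr14:23183611-23183910, 13 CG) was CpG-rich by the same limits, with a ratio of 0.68. The motif TATAAA, searched on both strands, was present in the window of 1 member (ABCC2, starting 236 bases before the transcript start) and in 7.90% of the eligible genes.

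**Figure D1:**
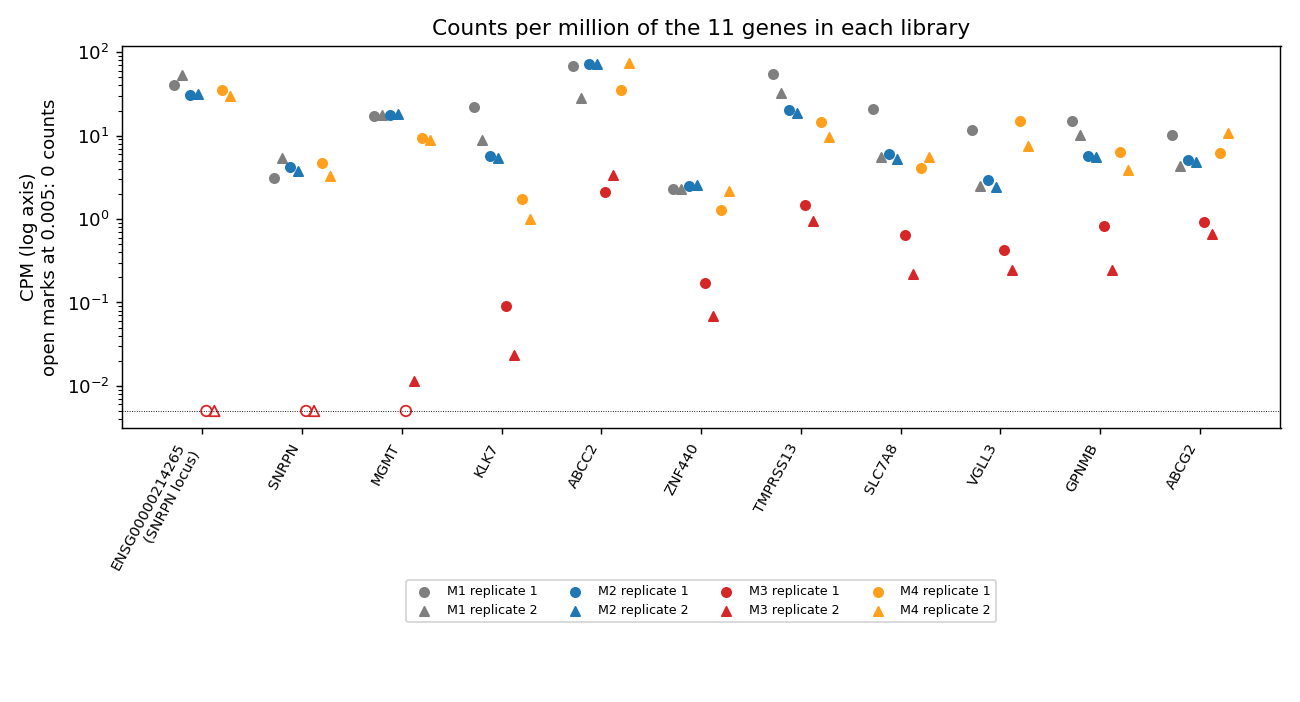
CPM (log axis) of each of the 11 genes in each of the 8 libraries, ordered from the lowest to the highest ratio of M3 to the other lines. Circles are replicate 1, triangles are replicate 2, and open marks drawn at 0.005 CPM stand for 0 counts. In every gene both M3 libraries lie below all 6 other libraries, as the choice of the genes requires.

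The members with 0 counts in both M3 libraries were 2 overlapping genes on chromosome 15 (GRCh37). SNRPN (ENSG00000128739, chr15:25068784-25223870, + strand) encodes SmN, a protein of the spliceosomal ribonucleoprotein particles. Its level was 3.09 and 5.34 CPM (M1), 4.25 and 3.78 (M2), 0 and 0 (M3) and 4.72 and 3.27 (M4). ENSG00000214265 (chr15:25200181-25245423, + strand) was the more abundant, with 40.5 and 54.1 CPM (M1), 30.7 and 31.7 (M2), 0 and 0 (M3) and 35.1 and 30.1 (M4). With 3 counts per library as the limit that a count of 0 allows, the level in either M3 library was at least 867-fold lower than the lowest other library for ENSG00000214265 and at least 88.9-fold lower for SNRPN. These limits cover counting error only. The exons of ENSG00000214265 share 349 bp with SNURF, 541 bp with SNRPN and 1049 bp with the noncoding gene SNHG14. Release 44 of the annotation gives SNURF under an identifier that is not in the count table, and whether ENSG00000214265 is the gene that release 19, used for the counting, named SNURF was not checked here. How the counting divided reads among these overlapping genes affects the level of each one in M1, M2 and M4, but not the absence of counts in M3.

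The noncoding transcripts downstream on the same strand were low in M3 too. SNHG14, the long host transcript of small nucleolar RNAs that runs toward UBE3A, had 1 and 6 counts in M3 and 1252 to 2211 in the other 6 libraries, or 0.21% of their mean CPM. PWAR6 and ENSG00000261069, both of low level, had 0 counts in both M3 libraries, with 51 to 92 and 33 to 93 counts in the others. UBE3A, a ubiquitin ligase gene on the opposite strand that overlaps the end of SNHG14, did not share the loss. Its level was 61.9 and 53.3 CPM (M1), 57.9 and 60.0 (M2), 51.1 and 90.4 (M3) and 56.8 and 67.6 (M4), and the M3 mean was 119% of the mean of the other lines. The processed pseudogene RPL5P1, which lies within SNRPN on the opposite strand, was at 95.3%. Its expected counts were not whole numbers (142.12 and 92.11 in M3), so reads may be shared with other genes and need not come from this locus. On the side of the centromere, NIPA2 and NIPA1 were at 124% and 120%, and on the far side HERC2 and NSMCE3 were at 88.2% and 108%. The counts at this locus were thus low in M3 over the transcripts of 1 strand that start between 0 and 264 kb from the start of SNRPN, with genes at the level of the other lines on each side.

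**Figure D2:**
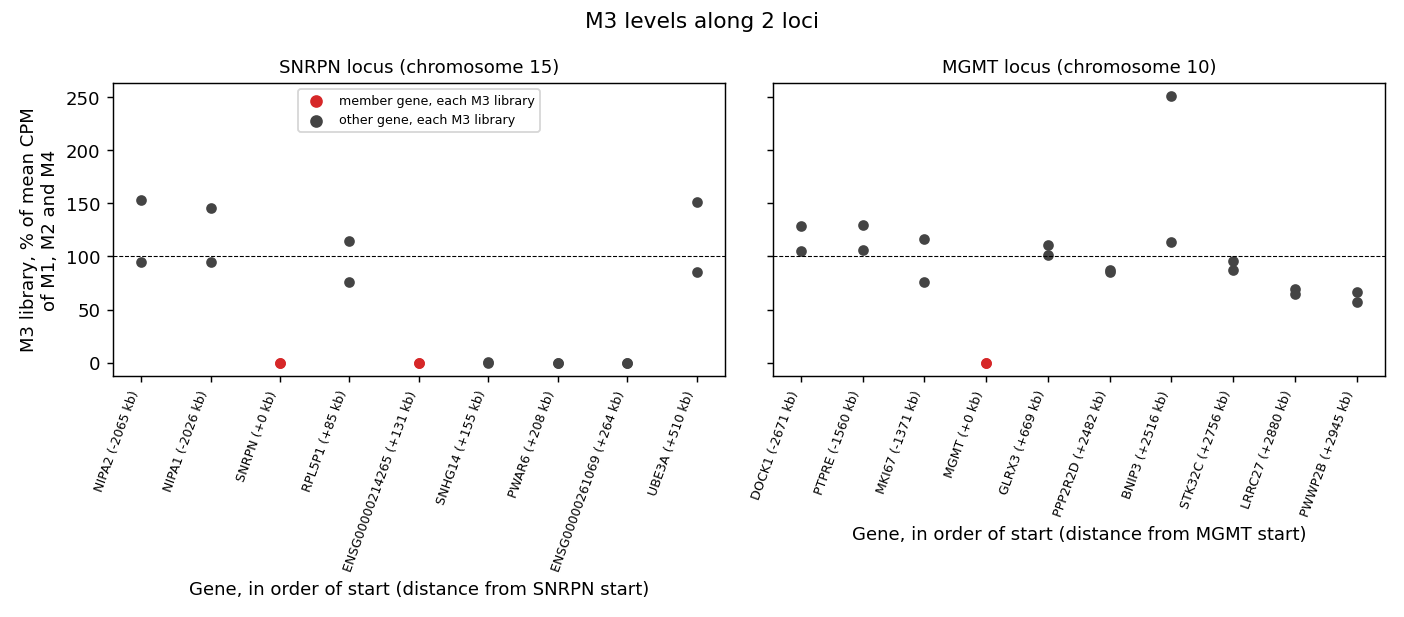
Level in each M3 library as a percentage of the mean CPM of M1, M2 and M4 for the genes with a mean of at least 0.5 CPM in M1, M2 and M4 within 3 Mb of SNRPN (left) and MGMT (right), in order of their starts, with the distance of each start in kb. Members are red and other genes dark grey. On chromosome 15 SNRPN, ENSG00000214265, SNHG14, PWAR6 and ENSG00000261069 lie at 0 or close to it, and on chromosome 10 only MGMT does.

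MGMT (ENSG00000170430, chr10:131265454-131569247, + strand) had the next lowest ratio of M3 to the other lines. Its highest M3 library was 773-fold below its lowest other library, which is more than the limit of 88.9-fold that the 0 counts of SNRPN allow to be stated, so these 2 genes cannot be ordered by the size of the loss. Its level was 17.0 and 17.6 CPM (M1), 17.6 and 18.1 (M2), 0 and 0.012 (M3) and 9.26 and 8.95 (M4). The M3 libraries held 0 counts and 1 count, against 681 to 1803 counts in each of the others. With the counts of both replicates pooled, the ratio of M4 to M3 was 1590, with an exact 95% interval of 285 to 62845. The interval covers counting error only, not the spread between replicates. Since the rule chose the gene by these values, the interval does not test the loss. The replicates lay close together in each line that kept the gene, and the levels in M1 and M2 did not overlap those in M4. The 6 nearest eligible genes were not low in M3. DOCK1, PTPRE and MKI67 on one side were at 117%, 118% and 96.1% of the mean of the other lines, and GLRX3, PPP2R2D and BNIP3 on the other side at 106%, 86.7% and 182%.

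MGMT was the only member in the list of 59 DNA repair genes, of which 57 were eligible. It was also the only one of these 57 whose M3 mean was below 50% of the mean of the other lines, where 3.65% of all eligible genes were. The next lowest was XPC, which recognises bulky DNA lesions in nucleotide excision repair, at 67.3%, and the median of the list was 106%. In the list of 46 genes often silenced by promoter methylation in carcinomas, 26 were eligible, and 2 of them, MGMT included, had an M3 mean below 50%.

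The membrane transporters were reduced rather than absent. ABCC2 (ENSG00000023839, chr10:101542397-101612351, + strand), which exports glutathione and glucuronide conjugates across the apical membrane, was the most abundant of these genes. It was at 68.9 and 28.4 CPM (M1), 72.8 and 71.4 (M2), 2.10 and 3.39 (M3) and 35.3 and 73.7 (M4). The highest M3 library was 8.36-fold below the lowest other library, M1 replicate 2, and the difference between the replicates of M1, and between those of M4, was larger than the difference between the means of these lines.

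ABCG2 (ENSG00000118777, chr4:89011302-89152780, - strand), a half-transporter that was cloned from drug-resistant breast cancer cells, was at 10.3 and 4.30 CPM (M1), 5.11 and 4.89 (M2), 0.93 and 0.66 (M3) and 6.19 and 10.7 (M4). Its distance to the other libraries was the smallest of all members, 4.60-fold. In the family of ATP-binding cassette (ABC) transporters, looked at because these 2 genes were members, 24 genes were eligible and their median M3 level was 88.2% of the mean of the other lines. Only 1 further gene, the lipid transporter ABCA12, was below 50%, at 49.2%. ABCC1 and ABCC3, which export similar conjugates to ABCC2, were at 99.6% and 142%.

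SLC7A8 (ENSG00000092068, chr14:23594504-23652883, - strand) encodes LAT2, an exchanger of neutral amino acids. It was at 20.8 and 5.60 CPM (M1), 6.08 and 5.22 (M2), 0.64 and 0.22 (M3) and 4.13 and 5.53 (M4). The M1 replicates differed more from each other than M1 replicate 2 differed from M2 or M4. None of the other 4 eligible SLC7 genes was a member, and SLC7A5, the closely related exchanger LAT1, was at 85.0% of the mean of the other lines. Over all solute carriers, 187 were eligible, SLC7A8 was the only member, and 10 had an M3 mean below 50%.

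Both proteases among the members are serine proteases of epithelia. KLK7 (ENSG00000169035, chr19:51479724-51487355, - strand) is a secreted peptidase that takes part in the shedding of cornified skin cells. It was at 21.9 and 8.85 CPM (M1), 5.69 and 5.44 (M2), 0.091 and 0.023 (M3) and 1.76 and 1.01 (M4). The M3 values rest on 8 and 2 counts, and the lowest M4 library was just above the minimum of 1 CPM. M4 was below M1 and M2 in both replicates, so the level was graded over the lines. The ratio of M4 to M3 over both replicates was 25.3, with an exact 95% interval for counting error of 13.5 to 53.3. As for MGMT, this interval pools the replicates and does not test the loss.

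The kallikrein genes lie next to each other on 19q, and the loss did not extend over all of the group. KLK5, at a start 33.2 kb from that of KLK7, was at 83.8 and 199 CPM in M3, or 113% of the mean of the other lines. KLK10, 36.3 kb away on the other side, was at 92.9%. KLK6, between KLK5 and KLK7, was at 27.8%, but its M3 levels of 2.70 and 5.36 CPM were within the range of M1 and M2 (2.41 to 8.16 CPM), with M4 at 48.6 and 20.7 CPM. KLK8 and KLK9, of low level and not eligible, were at 25.5% and 75.2%. KLK8 was at 1.02 and 0.14 CPM in M3, 1.40 to 6.03 in M1 and M2, and 0.037 and 0 in M4.

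TMPRSS13 (ENSG00000137747, chr11:117771356-117800174, - strand) encodes a serine protease anchored in the cell membrane. It was at 55.4 and 32.3 CPM (M1), 20.1 and 18.5 (M2), 1.49 and 0.94 (M3) and 14.5 and 9.77 (M4). As for KLK7, both M1 libraries were the highest and both M4 libraries the lowest of those that kept the gene. TMPRSS4, a related protease whose start lies 176 kb away, was lower in M3 as well, at 3.81 and 3.01 CPM against 9.24 to 22.3 CPM elsewhere (25.3% of the mean). ST14, the gene of matriptase, was at 71.9%.

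ZNF440 and VGLL3 encode nuclear proteins. ZNF440 (ENSG00000171295, chr19:11925088-11946031, + strand), a zinc finger protein of the C2H2 type, was at 2.27 and 2.30 CPM (M1), 2.48 and 2.53 (M2), 0.17 and 0.069 (M3) and 1.28 and 2.18 (M4). These levels are low, with 15 and 6 counts in M3 and 137 to 253 counts in the other libraries. Zinc finger genes of this cluster resemble each other in sequence, so reads can be shared between them and the level of each gene is uncertain to that extent. Of the genes on each side, ZNF441, with a start 47.3 kb away, was at 11.1% of the mean of the other lines, and ZNF823, 93.0 kb away, at 35.9%. ZNF20, 279 kb away on the other side and not eligible because M4 was below 1 CPM in 1 library, was at 9.11%. Its level was 0.27 and 0 CPM in M3, 1.03 and 0.37 in M4, and 1.65 to 2.05 in M1 and M2, so it was not low in M3 alone. ZNF700, which lies between ZNF440 and ZNF20, was at 68.9%, and ZNF627 at 74.8%.

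Among the genes with a zinc finger symbol as a class, low values in M3 were given by more than ZNF440. The class was taken by symbol, so not every gene in it need be of the C2H2 type. Of 372 eligible genes with such a symbol, 27 (7.26%) had an M3 mean below 50% of the mean of the other lines, against 3.65% of all eligible genes. Their median was 82.1%, against 93.0% over all eligible genes. ZNF440 was the only one that met the rule.

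VGLL3 (ENSG00000206538, chr3:86925538-87040299, - strand) encodes a cofactor of the TEAD transcription factors. It was at 11.8 and 2.49 CPM (M1), 2.98 and 2.41 (M2), 0.42 and 0.24 (M3) and 14.9 and 7.45 (M4). Both M4 libraries were above both M2 libraries, as they were for ABCG2 and for no other member. The related cofactor VGLL4 was at 81.8%. GPNMB (ENSG00000136235, chr7:23275586-23314727, + strand), a membrane glycoprotein of melanosomes and lysosomes, was at 15.1 and 10.1 CPM (M1), 5.66 and 5.48 (M2), 0.83 and 0.24 (M3) and 6.44 and 3.85 (M4). The M3 replicates of GPNMB differed 3.42-fold, the widest ratio among the members with more than 10 counts in each M3 library.

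Per kilobase of merged exon length, which allows a comparison between genes, the lowest level outside M3 was 18.9 CPM per kb for ENSG00000214265, 3.62 for ABCC2, 1.82 for TMPRSS13, 1.37 for MGMT, 0.91 for SNRPN and 0.77 for ABCG2. The other 5 were below 0.70 CPM per kb. By this measure, the lowest library outside M3, ENSG00000214265 was the member of highest level and ABCC2 the next.

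**Figure D3:**
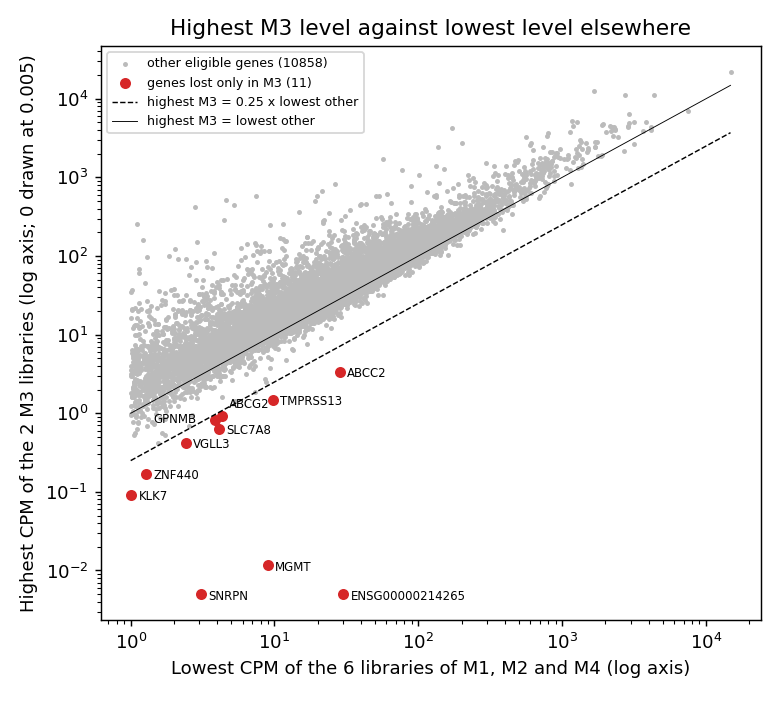
Highest CPM of the 2 M3 libraries against the lowest CPM of the other 6 libraries for the 10869 eligible genes, on log axes, with 0 drawn at 0.005 CPM. The 11 members (red) lie below the dashed line of the ratio 0.25. SNRPN, ENSG00000214265 and MGMT lie far below it, and GPNMB and ABCG2 close to it.

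The limit of 0.25 cut through a continuous range. The ratio of the highest M3 library to the lowest other library was 0.175 for VGLL3, 0.216 for GPNMB and 0.217 for ABCG2, the members closest to the limit. Just outside were ZNF91, which encodes a repressor of SVA retrotransposons, at 0.255, BMF, a BH3-only inducer of apoptosis, at 0.270, and VASN, a membrane protein that binds TGF-beta, at 0.270. With a limit of 0.5 there were 29 genes (0.267% of the eligible), and the median ratio of all eligible genes was 1.45. Only SNRPN, ENSG00000214265, MGMT and KLK7 remained with a limit of 0.1.

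The M3 replicates differed in how many genes they would have chosen alone. The first M3 library chose 19 genes, of which 11 were at or below the limit in the second, where 0.193% of all eligible genes were. The second chose 21, of which 11 met the limit in the first, where 0.175% of all eligible genes did. In both cases these 11 are the members by definition. Both M3 libraries were also read against the same lowest other library. These counts therefore describe the choice and do not test the loss. Genes that met it in 1 M3 library only numbered 18. Among them LMX1B was at 4.18 and 22.1 CPM in the M3 replicates, against 17.4 to 35.8 elsewhere, and ALDH3A1 at 0.62 and 6.04. These 2 genes were picked as examples after their values were seen.

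Each of the other lines also had genes that were low in that line alone. The same rule applied to each line in turn gave 11 of 10884 eligible genes for M1 (0.101%), 5 of 10833 for M2 (0.0462%) and 86 of 11039 for M4 (0.779%). M1 is the line from which the others descend, so the genes found for M1 were higher in the derived lines and are not losses. M4 kept all 11 members and was at least 4 times above M3 in each, as the rule requires. As a description, its counts over both replicates were 9.94 times (GPNMB) to 35.5 times (VGLL3) those of M3, after adjustment for the totals, in the 7 members with over 20 counts in M3.

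The 11 members lay on 8 chromosomes. Chromosomes 10, 15 and 19 held 2 each (18.2% of members, against 4.01%, 3.27% and 6.71% of eligible genes), and chromosomes 3, 4, 7, 11 and 14 held 1 each. By the definition of a cluster as members whose starts are within 1 Mb of each other, there was 1 cluster, SNRPN and ENSG00000214265. Their starts are 131 kb apart, their spans overlap by 23690 bp and no eligible gene starts between them, so they count as 1 locus. ABCC2 and MGMT are 29.7 Mb apart on chromosome 10, with 127 eligible genes between them. ZNF440 and KLK7 are 39.6 Mb apart, on different arms of chromosome 19, with 409 between them.

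The nearest eligible genes on each side of the members (up to 3 per side, 59 in all) were at a median of 92.9% of the mean of the other lines in M3, against 93.0% for all eligible genes. Of these neighbours 5 (8.47%) were below 50%, against 3.65% of all eligible genes. They were ZNF441 and ZNF823 beside ZNF440, TMPRSS4 beside TMPRSS13, KLK6 beside KLK7, and PPP1R3E, a glycogen phosphatase subunit, beside SLC7A8 at 46.3%. 4 of the 5 therefore are relatives of the member in sequence or family. Of these, KLK6 was within the range of M1 and M2 in M3, as described above, and its low percentage reflects its higher level in M4. No neighbour below 50% was found beside MGMT, ABCC2, VGLL3, GPNMB or ABCG2, where the lowest were 86.7%, 52.5%, 91.1%, 80.1% and 66.4%.

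**Figure D4:**
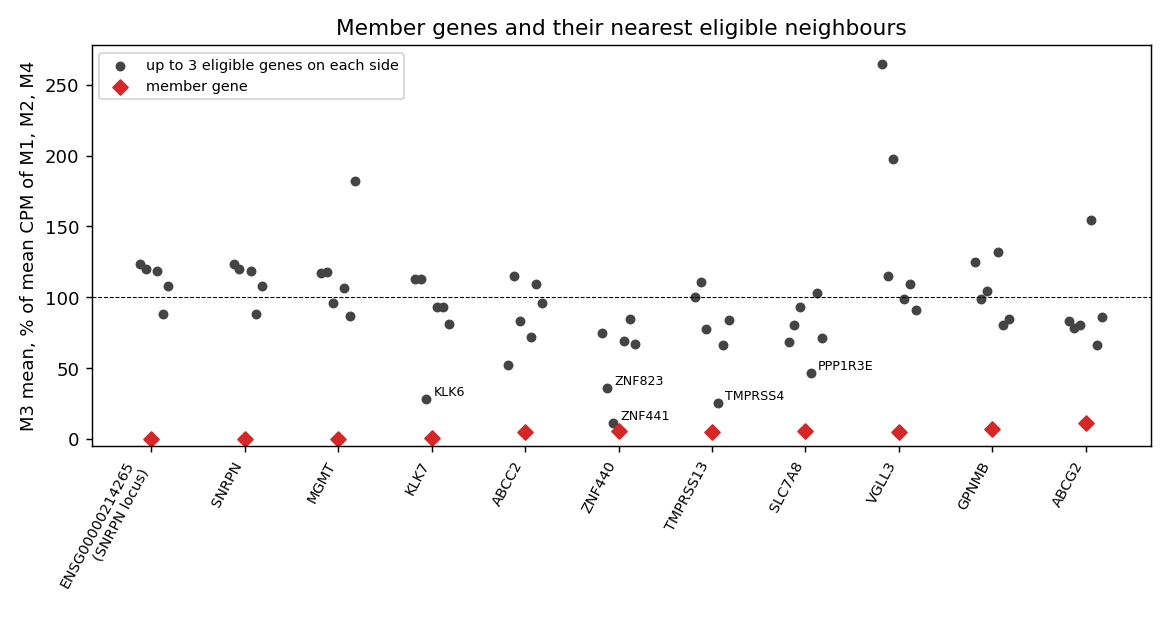
M3 mean as a percentage of the mean CPM of M1, M2 and M4 for each member (red diamonds) and for up to 3 eligible genes on each side of it (grey points, placed left to right in order of position). The named neighbours are the 5 below 50%, and the rest of the 59 lie between 52.5% and 265%.

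Outside the protein-coding genes, 4 of the 962 other genes with at least 1 CPM in M1, M2 and M4 (0.416%) met the same limits. SNHG14 is described above. LINC01550 on chromosome 14 had 0 counts in both M3 libraries, with 102 to 155 in those of M1 and M2 and 955 and 376 in M4. IPO5P1, a pseudogene near ZNF91 on chromosome 19, had 11 and 10 counts in M3 and 85 to 209 elsewhere. ENSG00000227184, which release 44 of the annotation does not list, was at 1.05 and 0.81 CPM in M3 and 5.39 to 10.9 elsewhere.

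Of 20 lists of genes (pathways, families and cell types), 4 held a member. Besides DNA repair, the genes often silenced by methylation, zinc finger genes and solute carriers described above, no member belonged to the lists of basal, luminal or mesenchymal genes, TGF-beta and BMP or WNT signalling, tumour suppressors, antigen presentation, interferon-stimulated genes, apoptosis, detoxification, integrins and laminins, cadherins, collagens, keratins, homeobox clusters or S100 proteins. In 2 of the lists without a member many genes were low in M3 relative to the mean of the other lines. Of 13 eligible luminal and simple epithelial genes 6 (46.2%) had an M3 mean below 50%, with a median of 56.3%, and of 22 eligible interferon-stimulated genes 10 (45.5%) did, with a median of 50.6%. That mean includes M4. Of 20 tested luminal genes, 9 were called higher and 4 lower in M4 than in M2. Of 34 tested interferon-stimulated genes, 11 were called higher and 1 lower. Over all genes, 6.98% were called higher and 6.94% lower. These calls of the 2 lists are given with the labels only, not with M1 replicate 2 and M2 replicate 1 exchanged. Why these genes were low in M3 was not tested. By their known roles, the members comprised 3 membrane transporters, 2 serine proteases, the 2 genes of the SNRPN locus, 1 DNA repair enzyme, 2 nuclear regulators and 1 membrane glycoprotein.

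The differences among the lines that kept the genes compare M1, M2 and M4, and were tested with edgeR over 18431 genes. The fit held all 8 libraries, so M3 entered the estimate of the spread, and the rule set a minimum on the level in these lines. Without the M3 libraries the members called were the same in both comparisons. Both comparisons share the M2 libraries. Between M2 and M1, grown in the same medium, none of the 11 members was called (edgeR adjusted p under 0.05 and a change of more than 1 on the log2 scale in either direction), where 3.37% of all genes were called, 2.26% as higher and 1.11% as lower in M2. At an unadjusted p under 0.05, 3 members were lower in M2 (ENSG00000214265, KLK7 and TMPRSS13), as were 11.3% of all genes, and DESeq2 called 2 lower (KLK7 and TMPRSS13), where it called 3.84% of all genes lower and 3.29% higher. KLK7 had a log2 fold change of -1.45 ± 0.52 (SE, edgeR adjusted p = 0.148), which ran from -1.94 to -0.70 with 1 library left out, the latter without M1 replicate 1, and was -0.91 with the 2 libraries exchanged. TMPRSS13 had one of -1.17 ± 0.33 (edgeR adjusted p = 0.0866), and -0.54 after the exchange. MGMT differed by 0.05 ± 0.22 (edgeR adjusted p = 0.928) and SNRPN by -0.07 ± 0.39 (edgeR adjusted p = 0.934). With M1 replicate 2 and M2 replicate 1 exchanged, no gene at all was called between M2 and M1, so this comparison depends on the labels of these 2 libraries.

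Between M4 and M2, which also differed in EGF, 2 of the 11 members were called, both lower in M4, where 13.9% of all genes were called, 6.98% as higher and 6.94% as lower in M4. MGMT fell by 1.03 ± 0.23 on the log2 scale (edgeR adjusted p = 0.0171), close to the fold limit, and KLK7 fell by 2.06 ± 0.53 (edgeR adjusted p = 0.0301). Both were lower in 2 of 2 M4 libraries than in either M2 library. Neither was called when any 1 library of M2 or M4 was left out, or when M1 replicate 2 and M2 replicate 1 were exchanged (the adjusted p over all alternatives ran up to 0.138 for MGMT and 0.156 for KLK7). VGLL3 was 1.99 ± 0.69 higher in M4 but did not pass (edgeR adjusted p = 0.0757), whereas it was called by DESeq2 (adjusted p = 0.00446, where 8.24% of all genes were called higher and 7.52% lower), with a replicate block (edgeR adjusted p = 0.0264), in a fit of the 2 lines alone (edgeR adjusted p = 0.0130) and without the filter on low counts (edgeR adjusted p = 1.36e-06). SNRPN and ENSG00000214265 differed by -0.07 ± 0.39 and 0.01 ± 0.19 (edgeR adjusted p = 0.920 and 0.979). The median log2 fold change of the members was -0.61 between M2 and M1 and -0.28 between M4 and M2, against -0.04 and -0.01 over all genes tested.

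**Figure D5:**
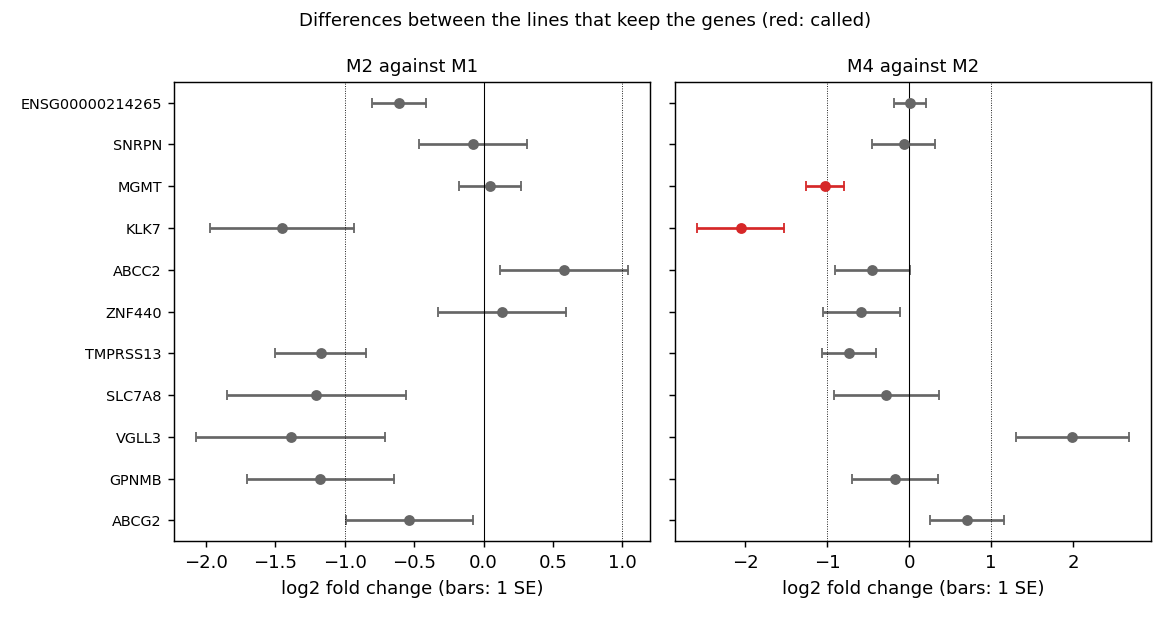
Log2 fold change of each member between M2 and M1 (left) and between M4 and M2 (right) from edgeR, with bars of 1 SE. Solid lines mark 0 and dotted lines the fold limit of 1, and the 2 genes called (red) are MGMT and KLK7, both lower in M4.

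The genes of the lists that held a member were counted without the members. Of the 57 other DNA repair genes tested, 14 (24.6%) were called higher and 0 lower in M2 than in M1, where 2.26% and 1.11% of all genes were, and 1 was higher and 1 lower in M4 than in M2 (1.75% each, where 6.98% and 6.94% of all genes were). Of the 441 other zinc finger genes, 1 was higher and 1 lower in M2 than in M1, and 12 (2.72%) were higher and 49 (11.1%) lower in M4 than in M2. Of the 250 other solute carriers, 4 were higher and 6 lower in M2 than in M1, and 31 (12.4%) were higher and 17 (6.80%) lower in M4 than in M2. Among the 33 other genes often silenced by methylation, 2 were higher and 2 lower in M2 than in M1, and 3 were higher and 6 lower in M4 than in M2. With M1 replicate 2 and M2 replicate 1 exchanged, the counts of M2 against M1 were 0. Those of M4 against M2, higher and lower, were then 1 and 1 for DNA repair, 10 and 47 for zinc finger genes, 16 and 12 for solute carriers and 2 and 1 for the genes often silenced, where 4.71% and 5.54% of all genes were called.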

How the data were processed

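Poly A+ RNA of 8 libraries, 2 biological replicates of each of 4 lines, was analysed from the table of RSEM's expected counts that the authors deposited. They trimmed paired-end reads with Trimmomatic, aligned them to hg19 with STAR and counted them with STAR/RSEM on GENCODE v19, per the study's methods and the submitters' processing notes. Tool versions, and whether the counting used strand, are not given in the sources used here. How far the counts separate overlapping genes on opposite strands is therefore not known. The deposited expected counts are not normalized, and 12.8% of them are not whole numbers.

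CPM used the plain column sums. Gene types and GRCh37 positions came from GENCODE release 44. For tests, counts were rounded and fitted with edgeR's quasi-likelihood test (version 4.0.16, R 4.3.3) over the 8 libraries together, with TMM scaling, the filter filterByExpr, robust estimation and a coefficient for each line. P-values were adjusted by Benjamini-Hochberg for the 18431 genes tested. Calls needed an adjusted p under 0.05 and a log2 change of more than 1 in either direction. SEs were derived from the F statistics. DESeq2 1.42.0 was an alternative, beside other size factors, filters, samples in the fit, a replicate block, other limits of the rule, and leaving out each library. With 1 library of a line left out, the lone library is assumed to vary like the others. Python 3.11.15, pandas 2.3.3 and scipy 1.17.1 served for the rest. The steps were tested on simulated data.

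The members, gene lists and tests were chosen with earlier results of these data known. The gene families, imprinted genes and neighbouring loci were looked at after the members were seen. The rule for naming genes took the members by ratio, by level per kb and by called change, clustered genes with 3 eligible genes on each side, the genes nearest the ratio limit, and members of a list. Promoter sequences are from RefSeq. ENSG00000214265 and TMPRSS13 had no matched promoter.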

Additional observations from a re-analysis of the deposited data

How the results depend on the processing

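The number of members was 11, and it was 29 with a ratio limit of 0.5, 4 with a limit of 0.1 and 4 with a floor of 5 CPM. It ran from 11 to 21 when 1 library was left out, with 21 without M3 replicate 1 and 19 without M3 replicate 2. Leaving out a library can only add members under this rule. With TMM library sizes 10 members remained and KLK7 fell below the floor of 1 CPM. Between M2 and M1, 622 genes were called, with 1325 by DESeq2, 1788 without a filter on low counts and 0 with M1 replicate 2 and M2 replicate 1 exchanged. Leaving out 1 library gave 0 to 876, with 2 without M2 replicate 1 and 0 without M2 replicate 2. The members called there numbered 0, and 2 by DESeq2. Without the filter 5 members were called, all lower in M2, where 1057 of all genes were called lower and 731 higher. Between M4 and M2, 2567 genes were called, with 4096 without a fold limit and 927 to 1665 when 1 library was left out. The members called numbered 2, and 3 by DESeq2, without the filter or in a fit of the 2 lines alone (VGLL3 added each time). All genes called in these 3 settings numbered 3110, 3482 and 3101. After the exchange 0 members were called, among 1889 genes called. The causes were not tested.

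The replicate numbers were not taken to pair the libraries, since the correlations of the replicates' deviations were -0.02 between M1 and M2 and 0.02 between M2 and M4, although 0.29 between M3 and M4. With a replicate block, 587 genes and 1 member (TMPRSS13) were called between M2 and M1, and 2462 genes and 3 members (KLK7, MGMT and VGLL3) between M4 and M2.

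Some fold changes changed sign. None of them was called with the settings of the report, though VGLL3 was called lower in M2 than in M1 without the filter on low counts (-1.38, edgeR adjusted p = 0.00276). After the exchange, ENSG00000214265 was at 0.30, SNRPN at 0.34 and ABCC2 at -0.50 (log2, M2 against M1), and ENSG00000214265 was at -0.47 and ABCC2 at 0.0788 (M4 against M2). With 1 library left out, M2 against M1 ran from -0.44 to 0.42 for SNRPN, -0.0106 to 0.11 for MGMT, -2.10 to 0.0821 for VGLL3 and -1.01 to 0.19 for ABCG2. M4 against M2 ran from -0.0777 to 0.12 for ENSG00000214265, -0.33 to 0.18 for SNRPN, -1.08 to 0.00316 for ABCC2 and -0.56 to 0.16 for GPNMB.

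At these depths, 3 counts were at most 0.0347 CPM in M3, so a residual level below that cannot be seen. KLK7, ZNF440 and MGMT in M3 rest on 10, 21 and 1 counts over both replicates. With 2 replicates per line, permutation of libraries between 2 lines cannot give a small p, and the tests assume a spread shared over all lines. The replicates were not equally close. The chi-square per degree of freedom between replicates was 6.69 in M2, against 263 in M1, 331 in M3 and 128 in M4. M2 is in both comparisons, so their SEs and adjusted p-values depend on an assumption that these values go against.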

Other observations

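Since SNRPN is imprinted, other genes known to be imprinted in some human tissue were looked at, with the list chosen after the members were seen. Of 38 such genes, 17 besides SNRPN were eligible, and none of the 17 had an M3 mean below 50% of the mean of M1, M2 and M4. They ran from 54.8% (L3MBTL1) to 200.04% (SGCE), with a median of 87.9%. MEST, an imprinted gene of 7q, was at 144 and 123 CPM in M3 and at 40.2 to 116 CPM in the other libraries. PEG10, a gene derived from a retrotransposon, was at 126 and 155 CPM in M3, within the range of 35.6 to 241 CPM elsewhere. GNAS, which encodes the alpha subunit of the stimulatory G protein, was at 475 and 424 CPM in M3 and at 441 to 568 elsewhere.

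Of the imprinted genes that were not eligible, SNHG14 is described above with SNRPN. TP73, CDKN1C, KCNQ1OT1 and NNAT also had an M3 mean below 50% of the mean of the other lines (4.38%, 17.5%, 18.9% and 45.0%). TP73 was at 0.24 and 0.48 CPM in M3 and lower still in M4 (0.084 and 0.13), against 5.28 to 17.2 in M1 and M2. KCNQ1OT1, a noncoding RNA, was at 1.08 and 0.65 CPM in M3, with M2 at 1.12 and 0.82. NNAT was low in every library, at no more than 1.29 CPM. H19, a maternally expressed noncoding RNA, was at 20.8 and 12.4 CPM in M3, 7.18 to 11.02 in M1 and M2, and 0.056 and 0.25 in M4. CDKN1C, a cell cycle inhibitor, was at 66.0 CPM in M1 replicate 1 and 0.35 in M1 replicate 2, so its percentage was set by 1 library. It was at 3.34 and 0.96 CPM in M3, 0.088 and 0.14 in M2, and 3.89 and 3.10 in M4. MAGEL2, NDN and MKRN3, which are other paternally expressed genes of 15q, had 0 counts in all 8 libraries and give no information on the extent of the loss at that locus.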
